A study of Mus musculus with 33 samples.

Results

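Mouse retinal cultures that had been directed towards cones were compared with cultures directed towards rods at day 35, the latest time sampled. The 6 libraries compared, 3 of each, were those titled with day 35 and cone or rod induction among 33 libraries in 11 groups of 3. All cells were retinal progenitor cells from C57BL/6J embryonic day 14 retina. The cone cultures received COCO protein, and the rod cultures received taurine and retinoic acid. No group at day 35 was left untreated, so each difference is between both inductions and neither can be set against untreated cells of that age. How long the factors stayed in the medium is not given in the sources used here. Takara kits for picogram amounts of RNA were used to extract total RNA and to build the libraries. Cultures are bulk samples, so fewer cells of a type and less RNA per cell cannot be told apart in any result here. The labels do not say whether the replicates came from separate cultures or animals. The p-values measure only the spread between replicate libraries, estimated over all 33 libraries of the series.

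Retinoic acid is made from retinaldehyde by aldehyde dehydrogenases, is broken down by CYP26 enzymes, and acts by binding nuclear receptors that sit on paired DNA half-sites beside their target genes. Taurine is an amino acid abundant in the retina that favours rod formation in culture. COCO, encoded by Dand5, belongs to the Cerberus and DAN family of secreted proteins and keeps BMP, TGF-beta and Wnt ligands from their receptors. Retinal progenitors give rise to ganglion cells, amacrine and horizontal cells, cones, rods, bipolar cells and, last, Muller glia.

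The 6 libraries held 13282637 to 19166442 read counts assigned to genes, and between 21651 and 22630 genes were detected. Genes of the mitochondrial genome took 8.24% to 14.2% of gene counts in the cone libraries and 14.8% to 20.5% in the rod libraries, without overlap. Levels are given as CPM, read counts scaled to library size by edgeR, which compare libraries for 1 gene but not one gene with another. A count of 0 allows up to 0.194 to 0.258 CPM (3 counts) in these libraries, for counting error only. The quasi-likelihood test of edgeR was fitted to 18150 genes, and calls were made at 0.05 after Benjamini-Hochberg adjustment. Of these genes 2229 were called (12.3%), of which 1411 were higher in cone cultures (7.77%) and 818 lower (4.51%). Of the calls, 1336 were 2-fold or more (7.36% of genes tested), with 994 of them higher (5.48%) and 342 lower (1.88%). Cone and rod libraries did not overlap for 27.9% of genes tested. The median log2 difference over all genes tested, always cone minus rod, was 0.025. Replicate 1 of the rod cultures weighed most on the number of calls, which was 1460 without it. When only the 6 compared libraries were fitted, 1456 genes were called, 1281 of them shared with the 2229. With the mitochondrial and ribosomal RNA genes left out of the library sizes, 2230 genes were called, 2200 of them shared with the 2229.

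Retinoic acid genes differed between the inductions in both directions. Of 23 listed genes of retinoic acid synthesis, breakdown and response, 21 were tested, 7 were lower in cone cultures and 3 were higher. The list's median log2 difference was -0.27 against 0.025 over all genes tested. The genes that were lower included the breakdown enzymes Cyp26a1 and Cyp26b1, the retinoic acid receptor Rarb and the retinaldehyde reductase Dhrs3. Those that were higher included the aldehyde dehydrogenases Aldh1a1 and Aldh1a2, which make retinoic acid.

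Cyp26a1 (ENSMUSG00000024987, chr19:37697808-37701528 on GRCm38) encodes a cytochrome that degrades retinoic acid and is itself switched on by it. It stood at 2.73, 5.07 and 2.74 CPM in cone replicates 1, 2 and 3 and at 226, 154 and 184 CPM in the rod replicates. Every rod library was far above every cone library, and the log2 difference was -5.74 ± 0.45 (SE, n = 3 per group, adjusted p = 1.57e-08, edgeR quasi-likelihood test). Cyp26b1, a second breakdown enzyme, was at 32.1, 6.27 and 29.1 CPM in cone cultures and at 249, 468 and 272 CPM in rod cultures. Cone replicate 2 had the lowest level and rod replicate 2 the highest, and the difference was -3.87 ± 0.59 (adjusted p = 5.49e-05). Rarb (ENSMUSG00000017491, chr14:16430842-16575472), the beta receptor for retinoic acid, varied little within each group. Its levels were 32.9, 28.2 and 28.2 CPM in cone cultures and 123, 122 and 113 CPM in rod cultures, a difference of -2.01 ± 0.21 (adjusted p = 3.64e-07).

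Dhrs3 returns retinaldehyde to retinol and so limits retinoic acid synthesis. It was at 77.8, 108 and 94.3 CPM in cone cultures against 461, 412 and 316 CPM in rod cultures, a difference of -2.08 ± 0.28 (adjusted p = 1.37e-05). The groups did not overlap. Tgm2, a transglutaminase that responds to retinoic acid in many cells, was lower by a log2 difference of -1.08 ± 0.27 (adjusted p = 0.0084). Nrip1, a nuclear receptor corepressor, was lower by a smaller difference of -0.42 ± 0.11 (adjusted p = 0.0131), and its adjusted p was 0.0838 without cone replicate 2 and 0.0703 without rod replicate 2.

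The synthesis enzymes ran the other way. Aldh1a1, the dehydrogenase of the dorsal retina, was at 372, 895 and 510 CPM in cone cultures and at 120, 66.3 and 128 CPM in rod cultures. The groups did not overlap, cone replicate 2 was highest, and the difference was 2.50 ± 0.56 (adjusted p = 0.00315). Aldh1a2, the main retinoic acid-making enzyme of embryonic mesenchyme, had 130, 17 and 279 counts in the cone libraries and 0, 1 and 0 in the rod libraries. The ratio of the 2 groups was 472, with a 95% interval of 84.3 to 18700 for counting error only (adjusted p = 2.49e-05). Its high and low cone libraries were those in which the fibroblast collagen Col1a2 was high and low (421, 87.4 and 920 CPM in replicates 1, 2 and 3), and the part of such cells in the Aldh1a2 result was not tested. Aldh1a3, the dehydrogenase of the ventral retina, was not called (log2 difference 0.98, adjusted p = 0.278), and neither was the retinol-binding protein receptor Stra6 (-0.96, adjusted p = 0.321). Rxra, the shared partner receptor, was higher by 0.59 ± 0.18 (adjusted p = 0.0279), a call that was lost without cone replicate 1 (adjusted p = 0.121), cone replicate 3 (0.104), rod replicate 2 (0.0667) or rod replicate 3 (0.125).

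A pair of promoters is shown because their genes carry the clearest retinoic acid difference and because both hold the classical binding pattern for retinoic acid receptors near the start of the gene. The pattern searched, on both strands, was a direct repeat of half-sites with a spacer, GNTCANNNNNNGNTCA, in the 250 bases before and 50 after each start (RefSeq sequences on GRCm38.p6). The capitals mark the match, and each sequence is written in the direction of its gene.
Rarb, chr14:16575506-16575535, minus strand: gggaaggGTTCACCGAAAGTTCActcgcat
Cyp26a1, chr19:37697592-37697791, plus strand: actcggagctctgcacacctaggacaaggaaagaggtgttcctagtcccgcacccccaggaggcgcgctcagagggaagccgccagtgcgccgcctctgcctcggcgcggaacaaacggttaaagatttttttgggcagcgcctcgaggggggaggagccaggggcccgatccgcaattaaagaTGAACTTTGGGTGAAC
The Rarb match ended 37 bases before the start and the Cyp26a1 match, which lies on the opposite strand, 17 bases before it. The Rarb stretch lies outside the gene's span in the deposited tables, quoted with its values, but within the first exon of longer transcripts in the GENCODE annotation. Of the 10 called genes of the list, 8 had a promoter in the table, and these 2 held the pattern. The windows of Aldh1a1, Aldh1a2, Cyp26b1, Dhrs3, Nrip1 and Rxra did not hold those letters. Over all 32851 promoters in the table, 0.861% held it. A match is a description of the letters and not of a bound site.

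**Figure D1:**
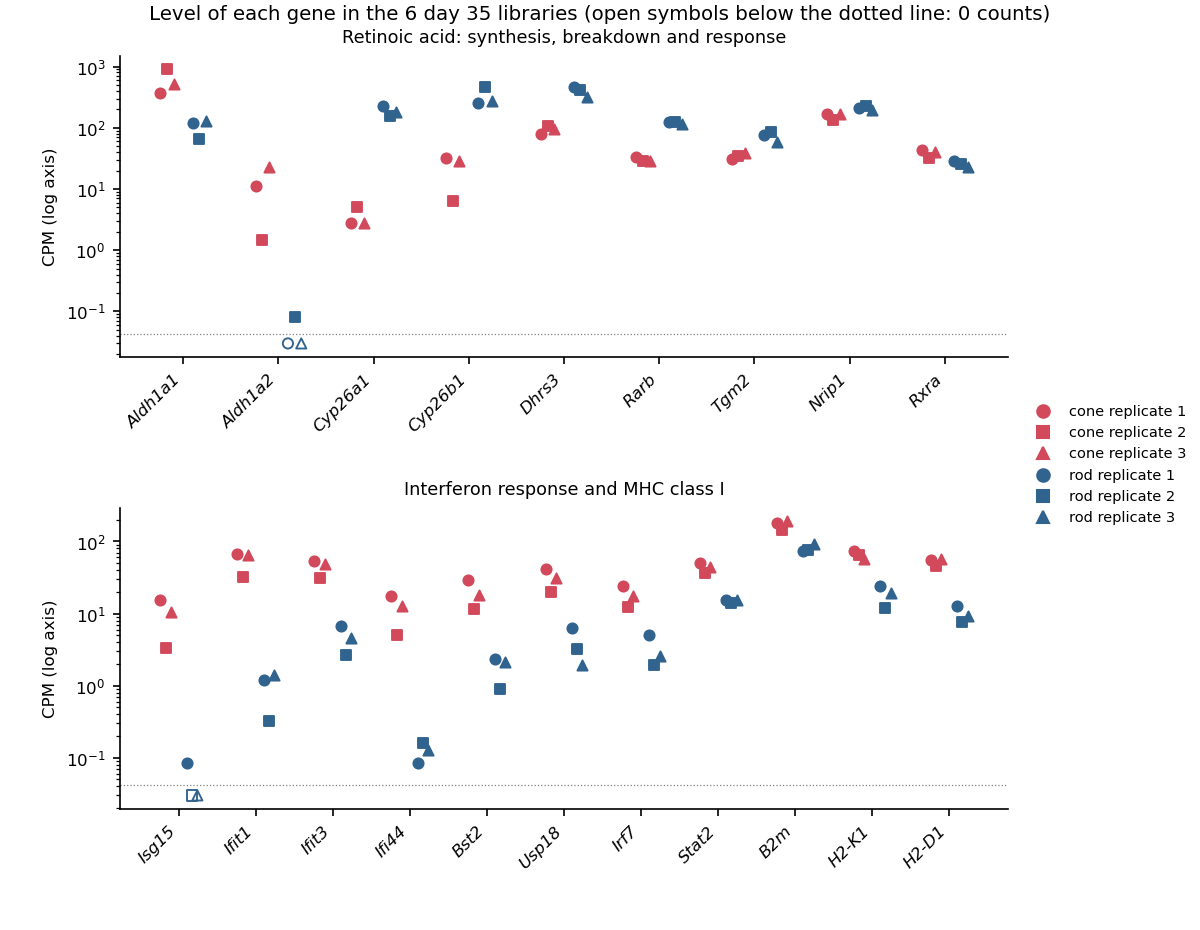
Levels in CPM (log axis) of 9 called retinoic acid genes and of 11 called interferon and MHC class I genes in each of the 3 cone and 3 rod libraries at day 35, with open symbols for 0 counts. Rod libraries lie above cone libraries for Cyp26a1, Cyp26b1, Rarb and Dhrs3, and below them for every interferon gene drawn.

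The interferon genes were higher in cone cultures almost throughout. Interferons are secreted alarm signals whose receptors activate STAT2 and related factors, which switch on antiviral genes and the machinery that presents peptides on MHC class I. Of 20 listed genes, all 20 were tested, 18 were higher in cone cultures and none was lower, with a median log2 difference of 2.15. The 2 that were not called were Irf1 (0.48, adjusted p = 0.223) and Oasl2 (0.20, adjusted p = 0.692). Summed over the list, levels were 869, 592 and 776 CPM in the cone libraries and 322, 224 and 281 CPM in the rod libraries.

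Among the antiviral effectors, Ifit1 (ENSMUSG00000034459, chr19:34640871-34650009), which binds foreign RNA, was at 66.7, 32.6 and 64.6 CPM in cone cultures and at 1.19, 0.323 and 1.42 CPM in rod cultures. Every cone library was far above every rod library, and the difference was 5.77 ± 0.55 (adjusted p = 3.64e-07). Its neighbour Ifit3 was at 52.8, 31.2 and 48.9 CPM against 6.63, 2.67 and 4.58 CPM, a difference of 3.26 ± 0.38 (adjusted p = 1.55e-06). Isg15, a ubiquitin-like modifier, had 179, 39 and 131 counts in cone libraries and 1, 0 and 0 in rod libraries, a ratio of 387 (95% interval 69.0 to 15300 for counting error only, adjusted p = 8.87e-06). Ifi44, another interferon-induced gene, was at 17.6, 5.07 and 12.7 CPM against 0.085, 0.162 and 0.129 CPM (6.44 ± 0.71, adjusted p = 2.26e-06). Its rod libraries were all below the 3-count floor, so the fitted fold depends on few counts. In all 4 genes cone replicate 2 was the lowest of the cone libraries and still above every rod library.

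Among the pathway's transcription factors, Stat2 was at 50.7, 36.2 and 44.8 CPM against 15.6, 14.2 and 15.3 CPM, a difference of 1.55 ± 0.17 (adjusted p = 1.05e-06). Irf7, the factor that amplifies interferon production, differed by 2.49 ± 0.40. The groups did not overlap in either gene. In the antigen presentation arm, B2m, the light chain of MHC class I, was at 182, 143 and 189 CPM in cone cultures and at 74.8, 76.2 and 91 CPM in rod cultures (1.09 ± 0.19, adjusted p = 2.98e-04). The heavy chains H2-K1 and H2-D1 were higher by 1.82 ± 0.26 and 2.42 ± 0.32, although reads of these near-identical genes may have been split between them. The calls of Tap2, Psmb8, Psmb9 and Nlrc5, which load or cut peptides or control that machinery, were each lost with at least 1 library left out, and the list had its fewest calls, 14, without rod replicate 2 and also without rod replicate 3. The highest adjusted p was 0.14 for Nlrc5 and 0.105 for Psmb8 without rod replicate 3, 0.0801 for Psmb9 without cone replicate 2 and 0.0583 for Tap2 without rod replicate 2. Markers of microglia, cells that express many of these genes, were also higher in cone cultures, with the highest sum in cone replicate 3 (430 CPM), and the summed interferon level was highest in cone replicate 1 (869 CPM). Their part in the interferon result was not tested.

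The promoters of 3 interferon genes are printed because Ifit1, Ifit3 and Isg15 are antiviral effectors described here that hold the interferon-stimulated response element. That element was searched as GAAANNGAAA on both strands of the same windows, and overlapping matches were kept. Capitals mark the matches, which in Ifit1 and Ifit3 lie on the opposite strand and so appear as the reverse complement.
Ifit1, chr19:34640744-34640868, plus strand: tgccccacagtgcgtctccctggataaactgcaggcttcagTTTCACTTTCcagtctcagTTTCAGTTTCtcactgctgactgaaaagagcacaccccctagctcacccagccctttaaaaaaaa
Ifit3, chr19:34583309-34583508, plus strand: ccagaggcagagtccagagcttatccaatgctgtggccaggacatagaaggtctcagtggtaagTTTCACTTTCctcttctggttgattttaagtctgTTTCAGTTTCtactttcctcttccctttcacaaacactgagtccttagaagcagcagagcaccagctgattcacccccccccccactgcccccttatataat
Isg15, chr4:156200839-156201038, minus strand: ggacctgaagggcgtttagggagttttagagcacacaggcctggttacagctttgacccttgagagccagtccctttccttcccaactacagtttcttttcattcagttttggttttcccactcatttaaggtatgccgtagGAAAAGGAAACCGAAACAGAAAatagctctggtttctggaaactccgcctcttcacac
Ifit1 held 2 matches, ending 95 and 76 bases before the start, Ifit3 held 2, ending 147 and 113 bases before it, and Isg15 held 3 overlapping ones, the nearest 57 bases before it. Of the 18 called genes, 14 had a promoter in the table and 7 of them held the element, namely B2m, Bst2, Ifit1, Ifit3, Isg15, Rsad2 and Stat2. The other 7 (H2-D1, H2-K1, Ifi44, Irf7, Psmb8, Psmb9 and Tap1) did not hold those letters in this window. Over all promoters in the table, 3.44% held the element.

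Microglia and macrophages are immune cells that enter the retina from outside the progenitor lineage, and most of their markers were higher in cone cultures. Of 20 listed markers, 18 were tested, 16 were higher in cone cultures and none was lower, with a median log2 difference of 4.13. P2ry12 and Aif1 had too few counts to be tested. Csf1r, the growth factor receptor these cells need, was at 4.44, 12.4 and 25.4 CPM in cone replicates 1, 2 and 3 and at 0.085, 0.162 and 0.387 CPM in the rod replicates (5.92 ± 1.22, adjusted p = 0.00158). Lyz2, a lysozyme of myeloid cells, was at 32.4, 52.5 and 182 CPM against 1.27, 1.62 and 0.452 CPM (6.35 ± 0.82, adjusted p = 7.61e-06). Cone replicate 3 was highest in both. The complement gene C1qa followed the same order, at 2.56, 4.04 and 14.0 CPM in cone cultures and at 0.323 to 0.404 CPM in rod cultures (4.24 ± 0.82, adjusted p = 8.36e-04). Trem2, a microglial lipid receptor, had 13, 29 and 46 counts against 1, 1 and 0 (ratio 48.8, 95% interval 13.1 to 409 for counting error only, adjusted p = 0.00399). Tmem119 departed from that order, with cone replicate 2 lowest at 2.15 CPM and the others at 7.25 and 9.28 CPM.

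Summed over the list, microglial markers stood at 114, 166 and 430 CPM in the cone libraries and at 42.2 to 45.8 CPM in the rod libraries. Of the 2 genes that were tested and not called, Cd68, a lysosomal protein that other cells also make, was at 4.27, 6.35 and 12.0 CPM against 3.74, 4.93 and 2.65 CPM (1.01, adjusted p = 0.112). Without cone replicate 3, 11 genes of this list were called, and the calls lost were C1qc (adjusted p = 0.106), Tyrobp (0.0889), Ptprc (0.0971), Itgam (0.166) and Mrc1 (0.195). C3ar1, the receptor for a complement fragment, was among the 12 largest rises (6.00 ± 1.06, adjusted p = 4.04e-04), with 2.13, 6.44 and 17.5 CPM in the cone libraries and at most 0.243 CPM in the rod libraries.

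Cone cultures also held more RNA of connective tissue and matrix genes. Of 19 mesenchyme and fibroblast markers, 16 were tested and 7 were higher in cone cultures, none lower (median 1.37). Of 18 collagens outside that list, 9 were higher and 1 was lower (median 1.20). Of 18 matrix proteases and their inhibitors, 9 were higher and 1 was lower (median 1.29). Prrx1, a mesenchymal transcription factor, was at 460, 186 and 441 CPM in cone cultures and at 78.9, 126 and 101 CPM in rod cultures (1.83 ± 0.42, adjusted p = 0.00415). Col1a1, the main fibrillar collagen, was at 1294, 245 and 1408 CPM against 90.5, 293 and 95.4 CPM. Here the groups overlapped, because cone replicate 2 lay below rod replicate 2, and the difference was 2.62 ± 0.54 (adjusted p = 0.00156), a call that was lost when only these 6 libraries were fitted. Col8a1, a short-chain collagen of vessel and basement membranes, did not overlap, at 569, 366 and 550 CPM against 47.6, 52.4 and 80.0 CPM (3.04 ± 0.46, adjusted p = 5.83e-05).

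The matrix enzymes included 2 of the largest rises at day 35. Mmp3, stromelysin, was at 32.5, 6.78 and 27.0 CPM in cone cultures and at 0, 0.243 and 0.258 CPM in rod cultures (6.91 ± 0.81, adjusted p = 6.00e-05). Mmp13, a collagenase, was at 33.1, 10.7 and 21.6 CPM against 0, 0.323 and 0.646 CPM (5.95 ± 0.90, adjusted p = 7.41e-05). Cone replicate 2 was the lowest cone library for both. Mmp2, a gelatinase, differed by 2.35 ± 0.36 (adjusted p = 7.11e-05), its membrane-bound activator Mmp14 by 0.83 ± 0.15 (adjusted p = 4.22e-04) and the inhibitor Timp2 by 1.20 ± 0.21 (adjusted p = 2.62e-04). The counts depended on single libraries, since 4 collagens were called without cone replicate 3 and 6 of the proteases and inhibitors without cone replicate 1. Summed mesenchyme markers ranged from 4045 to 7097 CPM in the cone libraries and from 2275 to 3836 CPM in the rod libraries, cone replicate 2 being the lowest of its group. What such cells contributed to the collagen and protease differences was not tested.

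**Figure D2:**
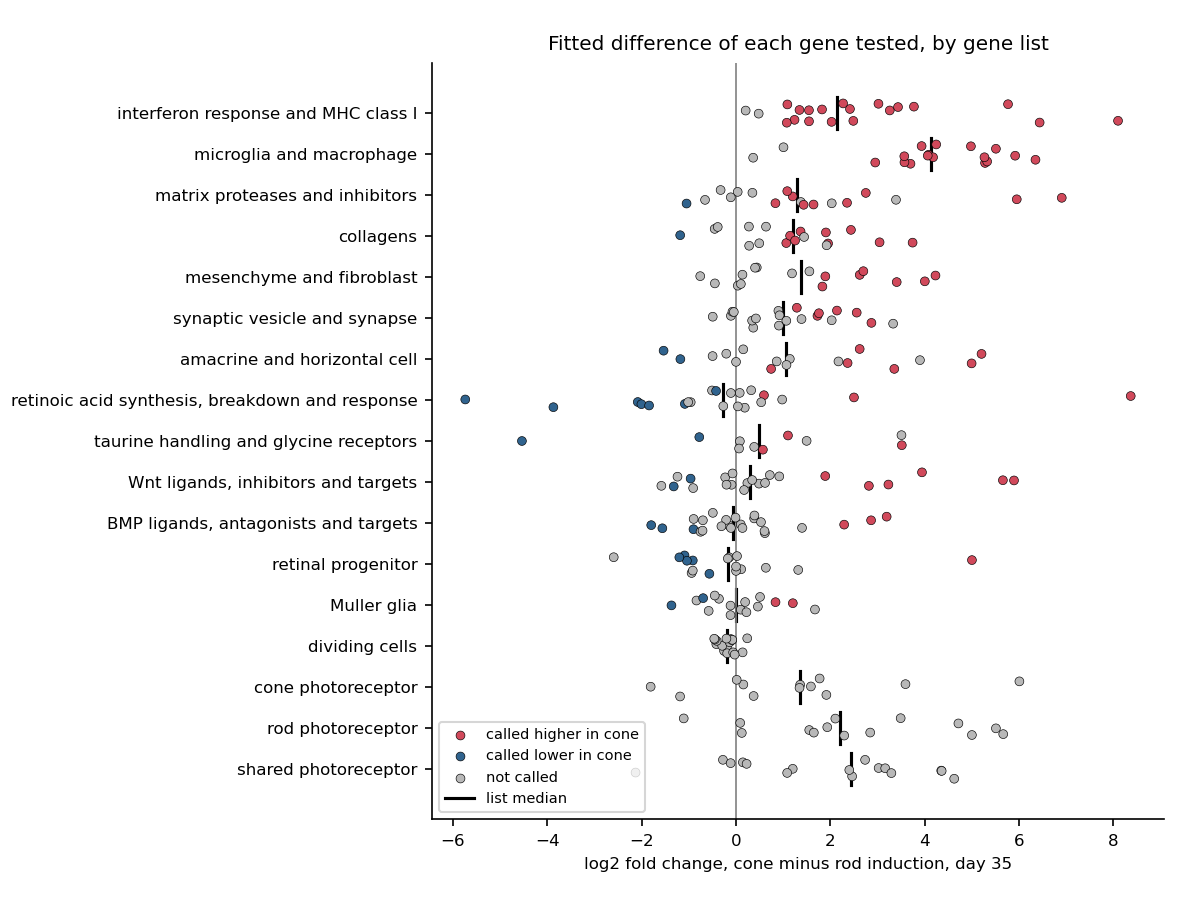
Log2 difference (cone minus rod) at day 35 of each tested member of 17 gene lists, 1 point per gene, red where called higher in cone, blue where called lower, grey where not called, with a bar at the list's median. The microglia and interferon lists lie almost wholly to the right of 0, and the photoreceptor lists hold no called gene.

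No photoreceptor gene was called between the inductions at day 35, in either direction. Of 45 listed cone, rod and shared photoreceptor genes, 42 were tested and 0 were called by edgeR, with adjusted p from 0.0579 to 0.983. At an unadjusted p under 0.05 there were 10, DESeq2 called 10 and voom of limma called 0. Opn1mw and Pde6h were among those with too few counts to test. Groups did not overlap for 6 genes that were higher and 2 that were lower in cone cultures, against 16.3% and 11.6% of all genes tested. The medians were 1.35 for cone genes, 2.20 for rod genes and 2.43 for shared genes, and with genes at the floor set to their bound 0.26, 2.02 and 2.43.

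The wide spread among cone cultures accompanied these medians. Of the 42 genes, 30 had their highest level of the 6 libraries in cone replicate 2. Crx, the homeobox factor of cones and rods, was at 2.82, 14.4 and 8.72 CPM in cone cultures and at 5.69, 1.94 and 3.68 CPM in rod cultures (1.20 ± 0.75, adjusted p = 0.345). Sag, rod arrestin, was at 1.11, 7.81 and 5.41 CPM against 2.12, 1.94 and 0.646 CPM (1.65 ± 1.54, adjusted p = 0.563). The shared gene Rbp3, which encodes the retinoid carrier between photoreceptors and pigment epithelium, was at 1.45, 35.9 and 17.5 CPM against 2.80, 1.21 and 1.61 CPM (3.29 ± 1.30, adjusted p = 0.101). In each of these 3 genes cone replicate 1 lay within or near the range of the rod libraries. The smallest adjusted p, 0.0579, belonged to Prdm1, a repressor that steers young photoreceptors away from the bipolar fate, at 4.44, 1.97 and 4.36 CPM against 0.85, 0.323 and 0.452 CPM.

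Some genes that tell cones from rods had few counts or none. Opn1sw, the short-wave cone pigment, had counts in 1 of the 6 libraries, a rod replicate at 0.0809 CPM. Cone arrestin, Arr3, was found in 1 cone library at 0.0858 CPM. Nrl, the factor that sets the rod fate, was at 0, 0.429 and 0.0807 CPM in cone cultures and at 0.17, 0 and 0 CPM in rod cultures. For these 3 genes a difference was not detectable at this depth. Gnb1, a G protein subunit that most cells express, made up most of the summed rod list, at 303 to 328 CPM of 347 to 369 CPM in cone cultures.

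**Figure D3:**
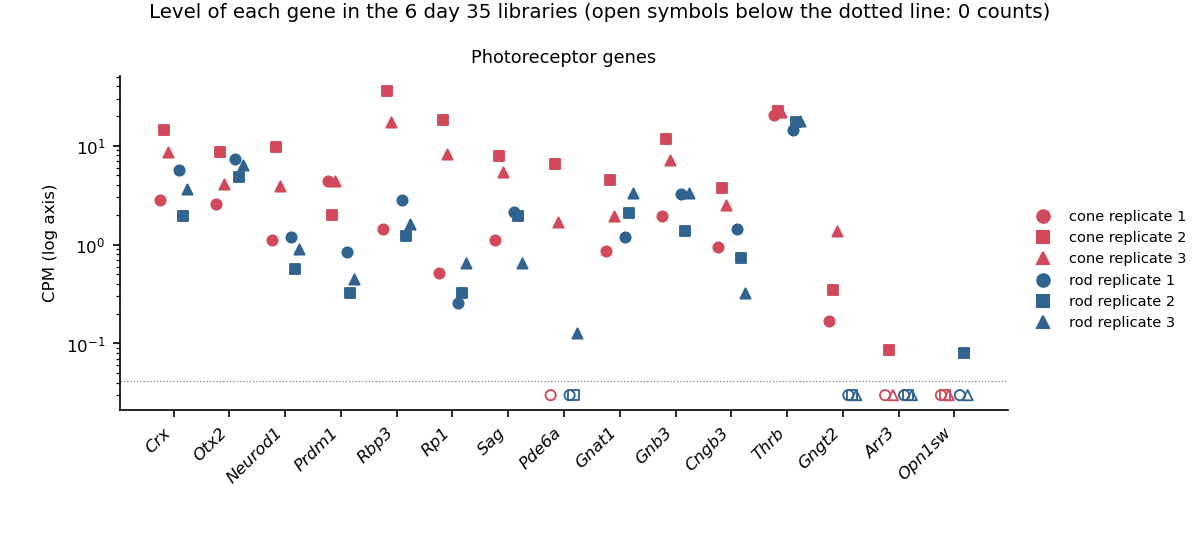
Levels in CPM (log axis) of 15 photoreceptor genes in the 3 cone and 3 rod libraries at day 35, with open symbols for 0 counts. Cone replicate 2 is the highest point for most genes. For Crx, Sag and Rbp3 the rod libraries lie among or below the other cone libraries, whereas the only Opn1sw count is in a rod library.

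Several progenitor transcription factors were lower in cone cultures. Of 17 retinal progenitor genes, all tested, 5 were lower and 1 was higher, with a median of -0.17. Over all genes tested, 4.51% were lower and 7.77% higher. Rax, needed to form the eye field, was at 13.9, 30.6 and 22.0 CPM in cone cultures and at 62.5, 37.0 and 42.5 CPM in rod cultures (-1.09 ± 0.20, adjusted p = 4.80e-04). Six6, a homeobox factor of progenitors, was at 49.5, 40.4 and 56.8 CPM against 135, 73.6 and 93.7 CPM (-1.04 ± 0.22, adjusted p = 0.00179). Neither overlapped between groups, although the Rax call was lost when only these 6 libraries were fitted. Pax6 was lower by -0.56 ± 0.14 on the log2 scale (adjusted p = 0.00691), with adjusted p of 0.0501 without cone replicate 3 and 0.0618 without rod replicate 1. The exception was Olig1, a factor of neural and oligodendrocyte progenitors, at 7.17, 3.86 and 4.36 CPM in cone cultures and at 0, 0.243 and 0.194 CPM in rod cultures (5.00 ± 0.65, adjusted p = 7.12e-06). Its chromosomal neighbour Olig2 was at 5.04, 2.49 and 4.84 CPM in cone cultures and had no count in any rod library, so it was at least 17.9-fold higher (adjusted p = 1.54e-06).

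Dividing cells and Muller glia, whose nuclei and processes span the retina, overlapped between groups in summed level. Of the 17 genes of dividing cells 0 were called by edgeR, DESeq2 or voom and 0 had an unadjusted p under 0.05, and their sum was 397 to 896 CPM in cone and 583 to 1008 CPM in rod libraries. Of 16 Muller glia genes 2 were higher and 2 lower (median -0.01), and their sum was 10590 to 12180 CPM in cone and 8869 to 12570 CPM in rod libraries. That sum hides genes that differed in opposite directions. By edgeR 9 of the 16 had an unadjusted p under 0.05. Groups did not overlap for 4 that were higher and 4 that were lower, against 16.3% and 11.6% of all genes tested. Only Dkk3, a secreted glycoprotein abundant in these cells, kept its call with each library left out, at 2109, 2380 and 2310 CPM against 3975, 3086 and 3964 CPM (-0.70 ± 0.18, adjusted p = 0.00987). The list had 2 calls with each single library left out. The other 3 calls (Vim, Abca8a and Crym) were lost without single libraries, at adjusted p up to 0.175 without rod replicate 1, 0.157 without cone replicate 1 and 0.204 without cone replicate 2, in that order.

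**Figure D4:**
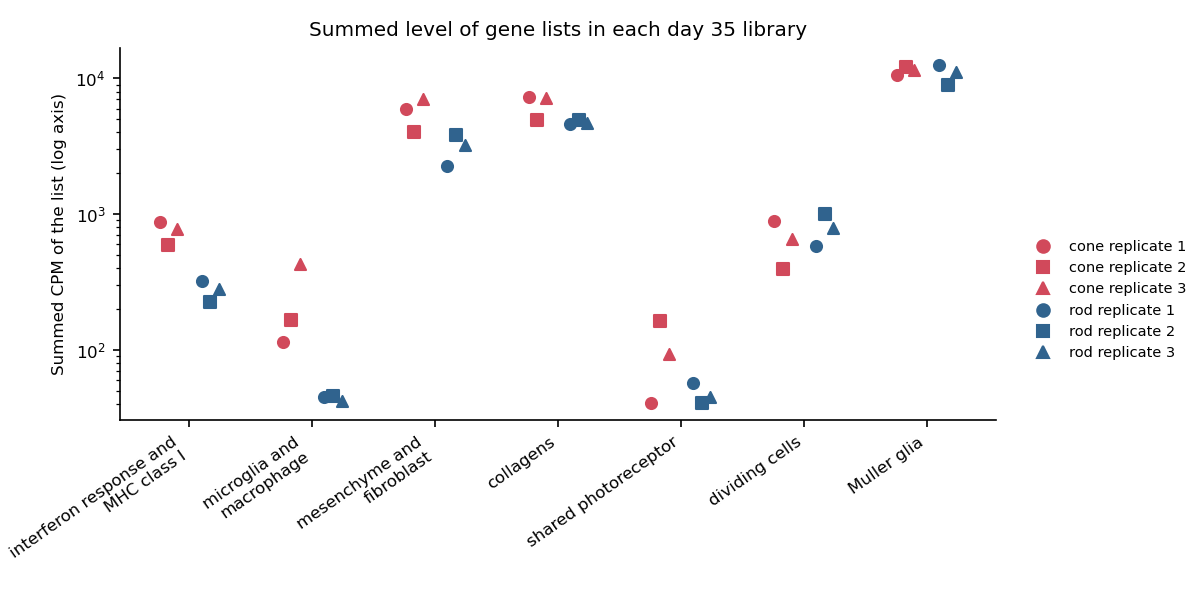
Summed CPM (log axis) over 7 gene lists in each of the 6 libraries at day 35. Cone and rod libraries are apart for the interferon list (592 to 869 against 224 to 322 CPM) and the microglia list (114 to 430 against 42.2 to 45.8 CPM) and overlap for dividing cells and Muller glia.

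Inner retinal neurons showed an uneven pattern, in which cholinergic genes stood out. Of 18 amacrine and horizontal cell genes, 17 were tested, 6 were higher in cone cultures and 2 were lower (median 1.07). Chat, which makes acetylcholine, was at 6.49, 6.78 and 2.26 CPM in cone cultures and at 0.34, 0 and 0.129 CPM in rod cultures (4.99 ± 0.80, adjusted p = 1.09e-04). Slc18a3, the vesicle transporter for acetylcholine, lies within the Chat gene, so that reads of the pair may not be told apart. It was at 2.73, 2.40 and 1.53 CPM against 0.085, 0 and 0.0646 CPM (5.20 ± 1.18, adjusted p = 0.0037). Its rod libraries were all below the 3-count floor, so the fitted fold depends on few counts. Chat and Slc18a3 both mark starburst amacrine cells in the retina. Tfap2a, a factor of amacrine and horizontal cells, was at 69.3, 59.5 and 60.2 CPM against 7.56, 13.5 and 9.62 CPM (2.62 ± 0.45, adjusted p = 2.04e-04), again without overlap. Slc17a8, the glutamate transporter of a class of amacrine cells, was higher by 2.37 ± 0.35 (adjusted p = 3.70e-05) and Prox1 by 0.74 ± 0.15 (adjusted p = 9.72e-04).

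The 2 genes that were lower were Slc6a9, the glycine transporter of amacrine cells and glia, and Onecut2, a factor of horizontal and ganglion cells. Slc6a9 was at 39.9, 45.6 and 49.2 CPM in cone cultures against 126, 82.5 and 97.5 CPM (-1.18 ± 0.20, adjusted p = 2.42e-04). Onecut2 was at 8.62, 18.1 and 13.0 CPM against 46.0, 35.5 and 33.9 CPM (-1.54 ± 0.23, adjusted p = 4.62e-05). Of 14 ganglion cell genes, 3 were higher and 1 was lower. Stmn2, a tubulin regulator of growing axons, was at 13.0, 17.4 and 13.2 CPM against 1.02, 0.889 and 2.00 CPM (3.43 ± 0.45, adjusted p = 9.41e-06), whereas Rbpms, the common ganglion cell marker, was lower at 32.7, 27.3 and 27.8 CPM against 72.2, 92.3 and 62.2 CPM (-1.37 ± 0.33, adjusted p = 0.00541). Thy1, which fibroblasts also express, was higher by 4.23 ± 0.56 (adjusted p = 9.52e-06). Of 11 bipolar cell genes only the kinase gene Prkca was called, lower by -0.68 ± 0.14 (adjusted p = 0.0018), and 2 were called without cone replicate 1. Over all genes tested, 12.3% were called.

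Of 20 genes of synaptic vesicles and synapses, 6 were higher in cone cultures and none was lower (median 0.99). Syt1, the calcium sensor of vesicle release, was at 117, 168 and 112 CPM against 55.1, 48.4 and 58.9 CPM (1.29 ± 0.28, adjusted p = 0.00223). Gria1, a glutamate receptor subunit, was at 47.4, 31.9 and 36.4 CPM against 10.8, 14.2 and 10.1 CPM (1.73 ± 0.23, adjusted p = 1.37e-05). Snap25, the membrane partner in vesicle fusion, was more variable, at 8.88, 59.7 and 29.4 CPM against 3.31, 4.93 and 5.04 CPM (2.87 ± 0.66, adjusted p = 0.00385), and voom did not call it. None of these 3 overlapped between groups, and the list had 4 calls without cone replicate 2. Grin1 and Syn2 lost their calls in that fit and also without rod replicate 1.

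Neuropeptide genes differed singly. Of 17 listed, 12 were tested, 3 were higher and 1 was lower (median 0.19), against 7.77% and 4.51% of all genes tested. Penk, the enkephalin precursor, was at 10.6, 12.4 and 17.7 CPM in cone cultures against 1.10, 0.728 and 1.10 CPM (3.77 ± 0.46, adjusted p = 2.79e-06). Scg2, a granin of secretory granules, was at 103, 74.8 and 148 CPM against 19.0, 15.7 and 19.4 CPM (2.59 ± 0.34, adjusted p = 7.83e-06). Sst, somatostatin, gave one of the largest falls but an uneven one, at 0.853, 0.258 and 0.726 CPM in cone cultures and at 58.0, 34.9 and 1.61 CPM in rod cultures. Rod replicate 3 lay close to the cone libraries, the difference was -5.65 ± 1.40 (adjusted p = 0.0074), and voom did not call it. The list had 6 calls without cone replicate 2.

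Genes of the pathways that COCO is known to block were called in both directions. The lists mix ligands with other members such as antagonists, receptors and targets, so these counts do not measure signalling. Of 24 BMP genes, 3 were higher and 3 lower in cone cultures (median -0.06), where 7.77% and 4.51% of all genes tested were. Their summed level overlapped, at 971 to 1079 CPM in cone and 1002 to 1090 CPM in rod libraries. Bmp2, a ligand, was at 9.22, 9.01 and 9.04 CPM in cone cultures and at 22.2, 35.3 and 37.3 CPM in rod cultures (-1.80 ± 0.32, adjusted p = 3.89e-04). Bmp6, another ligand, was higher by 2.29 ± 0.49 (adjusted p = 0.00225). Grem1, a secreted antagonist of BMP, was at 97.2, 222 and 118 CPM against 9.01, 12.5 and 38 CPM (2.86 ± 0.49, adjusted p = 2.10e-04). The ligands and the antagonist did not overlap between groups. The intracellular Smad9 was lower by -1.56 ± 0.39 (adjusted p = 0.00748), and the target gene Id2, at 21.4, 24.1 and 27.4 CPM against 41.0, 41.8 and 40.0 CPM, missed the threshold (-0.75 ± 0.25, adjusted p = 0.0505).

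Of 26 Wnt genes, 22 were tested, 6 were higher and 2 lower (median 0.29). Sfrp1, a secreted Wnt inhibitor, was at 268, 210 and 224 CPM in cone cultures and at 55.4, 69.4 and 64.6 CPM in rod cultures (1.89 ± 0.32, adjusted p = 2.01e-04). Rspo3, which enhances Wnt signalling, was at 8.02, 2.06 and 5.25 CPM against 0.17, 0 and 0.0646 CPM (5.89 ± 0.82, adjusted p = 5.49e-05). Its rod libraries were all below the 3-count floor, so the fitted fold depends on few counts. Lgr5, the receptor of Rspo3 and itself a Wnt target, was higher by 2.82 ± 0.53 (adjusted p = 5.80e-04) and the ligand Wnt2b by 3.23 ± 0.72 (adjusted p = 0.00327). The feedback inhibitor and Wnt target Nkd1 was lower, at 3.58, 2.23 and 2.83 CPM against 7.65, 7.04 and 6.97 CPM (-1.32 ± 0.21, adjusted p = 1.00e-04). Lgr5 and Nkd1 thus lay on opposite sides, and the listed gene Axin2 overlapped (17.3 to 29.3 CPM in cone, 19 to 35.6 CPM in rod libraries). The summed level of the Wnt list was 872 to 958 CPM in cone and 628 to 834 CPM in rod libraries, without overlap. Most of the gap between the mean sums (904 against 720 CPM) lay in Sfrp1 alone, so the sum does not describe the list as a whole. Of 16 TGF-beta genes, 13 were tested, 3 were higher and 2 lower (median 0.53). Their summed level was 4172 to 4601 CPM in cone and 2147 to 3619 CPM in rod libraries, without overlap. Without cone replicate 1, 2 were called, when Tgfb1 had an edgeR adjusted p of 0.0628 and Thbs1 one of 0.122. Both calls were also lost without rod replicate 1 (0.0669 and 0.256). The other higher gene, Tgfbr2, lost its call without cone replicate 1 (0.0938) or rod replicate 1 (0.148). The lower genes Ltbp1 and Skil lost theirs without cone replicate 2 (0.108 and 0.0624) or rod replicate 2 (0.129 and 0.114).

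Genes that handle taurine included one of the largest falls. Of 13 genes of taurine handling and glycine receptors, on which taurine acts, 10 were tested, 3 were higher and 2 lower in cone cultures (median 0.48). The higher genes were the glycine receptor subunits Glrb (1.10) and Glra3 (3.51), and Slc36a1 (0.57). Glrb kept its call with each library left out. Glra3 and Slc36a1 lost theirs without cone replicate 2 (edgeR adjusted p = 0.0845 and 0.0665). Slc6a13, a GABA transporter that also carries taurine, was at 0.683, 1.46 and 0.968 CPM in cone cultures and at 36, 16.7 and 20.2 CPM in rod cultures (-4.54 ± 0.54, adjusted p = 2.26e-06). The adjacent gene Slc6a12, a transporter of betaine and GABA, was at 0.256, 0.258 and 0.404 CPM against 7.90, 9.30 and 6.26 CPM (-4.62 ± 0.77, adjusted p = 1.99e-04). The pair lies on chromosome 6, and neither gene overlapped between groups. The main taurine transporter Slc6a6 did overlap, at 380, 304 and 512 CPM against 757, 809 and 487 CPM (-0.78 ± 0.22, adjusted p = 0.0168). Its call was lost without cone replicate 1 (adjusted p = 0.0621), cone replicate 2 (0.0972), rod replicate 1 (0.0681) or rod replicate 2 (0.0861), and this list had 2 calls without cone replicate 2.

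Several genes of cell-cycle arrest were higher in cone cultures. Of 15 p53 target and senescence genes, 14 were tested, 7 were higher and 1 was lower (median 0.73). Cdkn2a, which encodes the arrest proteins p16 and ARF, was at 26.4, 22.0 and 19.5 CPM against 6.97, 12.5 and 8.71 CPM (1.26 ± 0.30, adjusted p = 0.00488). Trp53inp1 was at 162, 157 and 145 CPM against 91.3, 95.6 and 89.3 CPM (0.75 ± 0.13, adjusted p = 2.63e-04). Both groups were tight in the latter, and neither gene overlapped. Cdkn1a, which encodes the arrest protein p21, was higher by 1.30 ± 0.34 (adjusted p = 0.0115) and had an adjusted p of 0.0848 without rod replicate 1, when 5 genes of the list were called. Sesn1, a stress-induced p53 target, was lower by -0.86 ± 0.18 (adjusted p = 0.0019). Of 18 glycolysis and hypoxia genes tested, 3 were lower (Eno1, Hk1 and Slc2a1) and none was higher, and 1 was called without cone replicate 3. Hk1 and Slc2a1 lost their calls in that fit and also without rod replicate 3. Eno1 shares its sequence with processed copies, between which its reads may have been split.

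Among the 12 largest rises not yet described, Scel, which encodes sciellin of stratified epithelia, was at 19.7, 17.9 and 11.4 CPM in cone cultures and at 0.085, 0.162 and 0.129 CPM in rod cultures (6.91 ± 0.64, adjusted p = 7.79e-08). Edaradd, the adaptor of the ectodysplasin receptor, was at 11.0, 8.76 and 8.31 CPM against 0, 0.162 and 0.129 CPM (6.40 ± 0.64, adjusted p = 2.17e-07). Arsi, an arylsulfatase gene, was at 8.11, 4.12 and 8.15 CPM against 0.085, 0.0809 and 0.129 CPM (5.94 ± 0.66, adjusted p = 1.44e-06). The rod libraries were all below the 3-count floor for these 3 genes, so the fitted folds depend on few counts.

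Among the largest falls outside the retinoic acid and transporter genes, Enpp2, which encodes the secreted enzyme autotaxin, was at 10.2, 12.4 and 25.8 CPM in cone cultures and at 571, 267 and 416 CPM in rod cultures (-4.69 ± 0.43, adjusted p = 7.27e-08). Alpl, tissue-nonspecific alkaline phosphatase, was at 0.768, 1.97 and 2.34 CPM against 70.1, 54.6 and 60.4 CPM (-5.17 ± 0.60, adjusted p = 1.54e-06). Ttr, the thyroxine and retinol-binding protein carrier of choroid plexus and pigment epithelium, was at 1.28, 0.515 and 1.21 CPM against 15.2, 21.8 and 13.4 CPM (-4.05 ± 0.56, adjusted p = 1.55e-05). None of the 3 overlapped. The pigment epithelium factor Mitf ran the other way, at 31.4, 20.3 and 29.8 CPM against 11.8, 9.38 and 12.1 CPM (1.29 ± 0.23, adjusted p = 4.27e-04), and the list of that tissue had 2 genes higher and 1 lower of 7 tested. Rpe65, Best1, Tyr and Pmel, which define the mature tissue, had too few counts to be tested. Wfdc1, a gene of the ciliary margin, was lower at 11.6, 12.7 and 16.1 CPM against 196, 105 and 175 CPM (-3.56 ± 0.41, adjusted p = 1.41e-06). Also among the largest falls were the chloride channel regulator Clca3a2 (-5.56 ± 0.60), the POU factor Pou3f4 (-5.10 ± 0.54), the paired box factor Pax8 (-4.39 ± 0.83) and the adenosine receptor Adora2a (-3.95 ± 0.57).

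Lists for neighbouring cell types and the hedgehog pathway held small numbers of tested genes. Over all genes tested, 7.77% were called higher and 4.51% lower in cone cultures. Vascular endothelium had 2 genes higher of 6 tested, and the defining genes Cdh5, Tek, Cldn5, Vwf, Tie1, Erg and Sox17 had too few counts to be tested. Kdr, which retinal progenitors and Muller glia also express, was 1 of the 2, at 125, 233 and 166 CPM against 106, 40.7 and 60.5 CPM (1.34 ± 0.26, adjusted p = 7.01e-04), and was not called when only these 6 libraries were fitted. The other was Pecam1 (1.86, adjusted p = 0.0468 by edgeR). Its call was lost in 5 of the 6 fits with 1 library left out, and the endothelial count was 1 without cone replicate 1. Pericyte and smooth muscle genes had 2 higher of 12 tested, namely the receptor Pdgfrb (2.36 ± 0.50, adjusted p = 0.00184) and the kinase Mylk (2.36 ± 0.34, adjusted p = 2.66e-05). Of 10 hedgehog genes 1 was called, the coreceptor Cdon, which was lower at 251, 343 and 273 CPM against 769, 562 and 579 CPM (-1.14 ± 0.15, adjusted p = 1.37e-05), and 3 were called without rod replicate 2.

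The remaining lists were small or lost calls when single libraries were left out. For all genes tested the shares were 7.77% called higher and 4.51% called lower. Notch genes had 2 higher of 13 tested, the ligand Jag2 and the target Hey1, and 0 were called without cone replicate 2. Both calls were also lost without rod replicate 3. Lens genes had 2 higher of 8 tested, the crystallin Cryba1 and the filament protein Bfsp1, and 0 were called without cone replicate 3. The Cryba1 and Bfsp1 calls were also both lost without rod replicate 2 and without rod replicate 3. Complement genes had 2 higher and 2 lower of 11 tested, and 1 was called without rod replicate 1. That one was the inhibitor Serping1, at 35.0, 41.0 and 54.0 CPM in cone cultures against 16.3, 4.69 and 2.52 CPM (2.48 ± 0.40, adjusted p = 1.00e-04). Astrocyte and reactive glia genes had 1 higher of 14 tested, the matrix receptor Cd44, which is near the share over all genes tested. None was called without cone replicate 1. The Cd44 call was also lost without cone replicate 3, rod replicate 1 or rod replicate 3. Oligodendrocyte genes had 1 higher of 8 tested, Olig2, and 3 were called without rod replicate 2. Of 9 genes of the ciliary margin, Mitf was higher and Wfdc1 lower.

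Day 35 was set against the earlier days by testing whether the cone minus rod difference itself had changed. From day 21 to day 35 this change was called for 1 of 18150 genes (0.00551%), while 965 had an unadjusted p under 0.05. That gene was Kit, the stem cell factor receptor (ENSMUSG00000005672, chr5:75574916-75656722). It was at 10.4, 9.87 and 5.73 CPM in cone cultures and at 42.7, 51.3 and 34.7 CPM in rod cultures at day 35. At day 21 it ranged from 27.6 to 43.6 CPM in cone and from 37.3 to 50.7 CPM in rod libraries, which overlapped. The difference was -2.31 ± 0.23 at day 35 and -0.18 ± 0.21 at day 21, a change of -2.12 ± 0.30 (adjusted p = 0.00337, edgeR). When only the libraries of the 2 days were fitted, Kit was not called.

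From day 12 to day 35 the change was called for 54 genes (0.298%), of which 41 rose towards cone and 13 towards rod, and 41 were also called at day 35. For 36 of the 54 the fitted difference had opposite signs on the 2 days. This count takes the sign alone, and some values lay within their SE of 0, as did Myh11 at day 35 (-0.01 ± 0.39). Nptx1, a secreted pentraxin that clusters glutamate receptors, ranged from 3.56 to 5.59 CPM in cone and from 10.3 to 21.5 CPM in rod libraries at day 12. At day 35 it was at 22.9, 14.2 and 21.5 CPM in cone and at 7.90, 4.61 and 5.68 CPM in rod libraries. The groups were apart on both days and in opposite order, and the change was 3.49 ± 0.42 (adjusted p = 6.19e-05). Gria1 reversed likewise, from -0.81 ± 0.22 at day 12 to 1.73 ± 0.23 at day 35 (change 2.54 ± 0.32, adjusted p = 1.42e-04). Cacna2d3, a calcium channel subunit, went from -0.33 ± 0.29 to 3.90 ± 0.40 as its rod libraries fell from 4.09 to 8.80 CPM at day 12 to 0.162 to 0.516 CPM at day 35 (change 4.23 ± 0.50, adjusted p = 6.19e-05). Csn3, which encodes kappa-casein, went from -0.76 ± 0.44 to 3.73 ± 0.46, and its cone libraries were at 159, 119 and 145 CPM at day 35 (change 4.49 ± 0.62, adjusted p = 5.07e-04).

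The number of genes called for the change from day 12 rested on single libraries. It was 309 without rod day 12 replicate 1 and 19 without cone day 12 replicate 3 or without rod day 35 replicate 3. It was 0 when only the libraries of days 12 and 35 were fitted, and 244 by DESeq2. Nptx1, Gria1, Cacna2d3 and Csn3 were called with each single library left out.

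**Figure D5:**
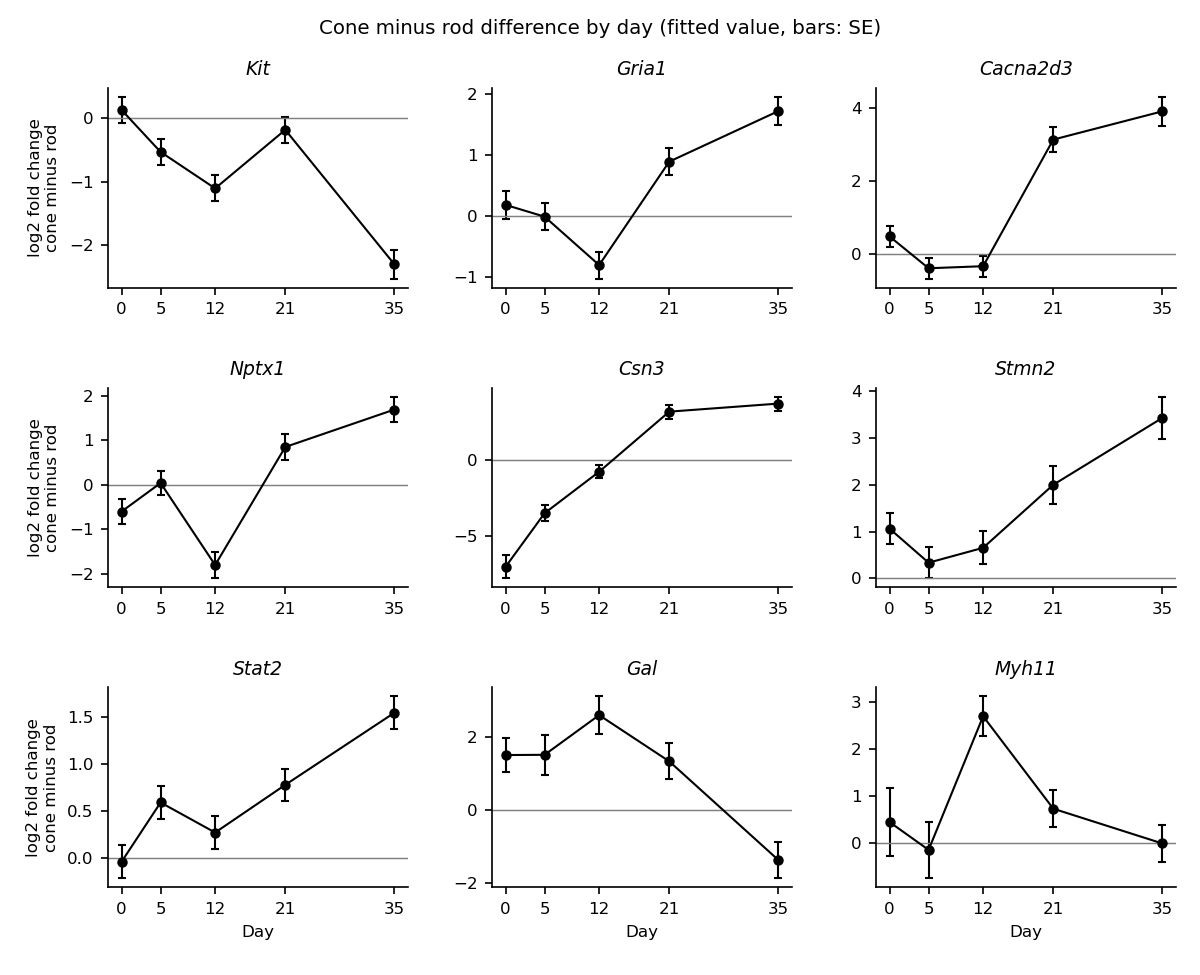
Log2 difference (cone minus rod, ± SE) of 9 genes at days 0, 5, 12, 21 and 35, 1 panel per gene. Kit falls between days 21 and 35, whereas Gria1 and Nptx1 cross from below 0 at day 12 to above 0 at day 35.

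The retinoic acid and interferon differences at day 35 were set beside those of the earlier days without a further test than that of the change. Cyp26a1 differed by -5.57 ± 0.45 at day 12, -4.78 ± 0.43 at day 21 and -5.74 ± 0.45 at day 35. Rarb differed by -2.48 ± 0.21, -2.35 ± 0.21 and -2.01 ± 0.21 on the same days. Neither change was called. Ifit1 differed by 3.17 ± 0.62, 4.49 ± 0.56 and 5.77 ± 0.55, and Stat2 by 0.28 ± 0.17, 0.78 ± 0.17 and 1.55 ± 0.17. Of these 4 genes Stat2 alone was called for a change (1.27 ± 0.24 from day 12, adjusted p = 0.0201). The Stat2 change from day 12 to day 35 was not called without cone day 12 replicate 3 (adjusted p = 0.0753), rod day 12 replicate 2 (0.053) or rod day 35 replicate 2 (0.0557), nor with the libraries of those days alone (0.263). Aldh1a2 was not called at day 12 (2.99 ± 1.57, adjusted p = 0.268) or day 21 (1.88 ± 1.14, adjusted p = 0.35). The change of its difference to day 35 was not called from either day.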

How the data were processed

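Groups of the 33 libraries follow the labels. In the deposited count tables each of 47729 genes has a raw read count; 5 lines that summarise unassigned reads were dropped, and 29% to 33.9% of tallied reads fell in genes at day 35. The TPM tables deposited by the authors hold values scaled to length and depth. The submitters' processing notes name HISAT2, StringTie, HTSeq and GRCm38, with no role; versions and the strand setting are not given in the sources used here, so reads of overlapping genes may not be told apart. FPKM and coverage were not used.

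Genes were filtered by filterByExpr (minimum count 10), which kept 18150 of the 32488 genes found. After TMM scaling, 1 edgeR quasi-likelihood model (edgeR 4.0.16, limma 3.58.1, R 4.3.3) was fitted to all 33 libraries, with Benjamini-Hochberg adjustment over all genes tested. The same model tested the change of the difference between days. Each SE given is an approximation, the absolute log2 difference or change divided by the square root of its F value in the quasi-likelihood test. On simulated data with 100 genes changed at each fold, 58% were recovered at 2-fold and 87% at 4-fold, with 15 false calls. The changed genes were drawn from those above 1 CPM in rod cultures at day 35, and each gene had the same spread in all groups. Recovery of genes at lower levels, or with uneven replicates in 1 group, was therefore not measured. Replicate pairs at day 35 differed beyond sampling noise (chi-square per degree of freedom 12.2 to 38.7), so each was counted as 1 sample. Alternatives were DESeq2 1.42.0 and its size factors, voom, other filters, the 6 compared libraries alone, a replicate block, no mitochondrial or ribosomal RNA genes, limma on log2(TPM + 1), and each library left out in turn. Same-numbered cone and rod libraries did not deviate together (correlations -0.198, -0.276 and -0.113).

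Some list members are counted but not reported singly here. The groups and 33 gene lists were chosen with earlier results of these data known. Genes named are list members, the 12 largest rises and 12 largest falls that were called, did not overlap and reached 1 in mean log2 CPM, and the 4 smallest p-values for each change between days. Sequences came from RefSeq on GRCm38.p6 (32851 promoters); 95% intervals of count ratios cover counting error only, since reads carry no molecular identifiers.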

Additional observations from a re-analysis of the deposited data

Results flagged for a closer look

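Among the genes that the naming rule takes, 11 were called for a change of the cone minus rod difference between days in the edgeR model. Over all genes tested, this change was called for 54 from day 12 and for 1 from day 21. From day 21 to day 35 the log2 change of Kit was -2.12. From day 12 to day 35 it was 4.23 for Cacna2d3, 4.49 for Csn3, 2.54 for Gria1 and 3.49 for Nptx1, each described in the report. The neuropeptide gene Gal changed by -3.98 (adjusted p = 0.0101), from a difference of 2.60 ± 0.51 at day 12 to -1.38 ± 0.50 at day 35, and its cone libraries ranged from 5.88 to 7.00 CPM at day 12 and from 1.02 to 2.83 CPM at day 35. Its rod libraries ranged from 0.50 to 1.95 CPM and from 3.42 to 5.74 CPM on those days, so the groups were apart on both and in opposite order. Stmn2 changed by 2.77 (adjusted p = 0.0317) and Stat2 by 1.27 (adjusted p = 0.0201), both towards cone.

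The contractile genes went separate ways. Myh11, the smooth muscle myosin heavy chain, changed by -2.72 (adjusted p = 0.0317), from 2.71 ± 0.42 at day 12 to -0.01 ± 0.39 at day 35. Mylk, the kinase of the myosin light chain, changed by 2.08 (adjusted p = 0.0417). The matrix proteoglycan gene Lum changed by 5.21 (adjusted p = 0.043), from -1.80 ± 0.97 to 3.41 ± 0.68. None of the 11 was called when only the libraries of the days compared were fitted. Those of Kit, Cacna2d3, Csn3, Gria1, Nptx1 and Gal were called with each single library left out, while the Stmn2 change from day 12 to day 35, and those of Stat2, Myh11, Mylk and Lum, were lost without at least 1.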

How the results depend on the processing

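The number of genes called at day 35 was 1456 with the 6 compared libraries alone (1281 shared with the 2229 reported), 17 with limma on log2(TPM + 1) and 1460 to 1948 with 1 library left out. Of 2-fold calls, 17 were found on TPM. For the change from day 21 the number was 2 with no filter, 3 by DESeq2, 20 by voom, 0 with the compared libraries alone or on TPM, and 1 to 2 with 1 library left out. For the change from day 12 it was 101 with no filter, 244 by DESeq2, 487 by voom, 0 with the compared libraries alone, 2 on TPM and 19 to 309 with 1 library left out. With the replicate block, 2256 genes were called at day 35, 1 for the change from day 21 and 57 for that from day 12; the samples share only a number. On TPM, Cryba1 was at -0.31, Usp18 at -0.28 and Snap25 at 0, against positive differences in counts. Over genes with a mean above 10 CPM, TPM and counts of a library correlated at 0.23 to 0.45, and 22.2% to 30.5% of them were listed at TPM 0 at day 35, Snap25 in 6 of 6 libraries. The cause was not tested. Among called genes that the naming rule takes, each refitted with every day 35 library left out in turn, 841 refits kept the call, 191 lost it and 0 reversed it; the other settings kept 1288 and lost 109. At a mean of 1 CPM or more, 56.9% of calls were higher in cone, and 70.1% without cone replicate 1. At 0.194 to 0.258 CPM per 3 counts, depth limited what could be seen of cone- and rod-specific genes.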
